A study of Mus musculus with 6 samples.

Results

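The genes described here are those of the axon guidance families in the deposited table of mouse temporomandibular joint (TMJ) tissue. Members were taken by gene symbol: the ephrins (Efna, Efnb) and their Eph receptors, the semaphorins of classes 3 to 7 and their plexin receptors, the slits and their Robo receptors, and the netrins and their Unc5 receptors. The rule found 66 genes of the 22032 in the table, 35 ligands and 31 receptors. Of these, 59 had enough counts to be tested. Per the labels and design text, the study sequenced poly(A) RNA of the joint from Igf2bp2-/- mice (KO, labelled Igf2bp2-KO) and wild-type littermates (WT, labelled Igf2bp2-WT), all aged 10 weeks, with 3 libraries per group and no treatment named. IGF2BP2 binds mRNAs that carry m6A marks, and the title of the series connects it with loss of subchondral bone, the bone under the cartilage of the joint. Which exons the KO lacks, the strain, and whether a library is 1 animal or a pool are not stated there.

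Guidance molecules were first known for steering growing axons. They act between neighbouring cells: ephrins are held in the membrane and bind Eph receptors on the next cell, with signals running into both cells, while secreted class 3 semaphorins act on plexins through neuropilin coreceptors and the membrane-bound classes bind plexins directly. Slits signal through Robo receptors and netrins through Dcc and Unc5 receptors. In bone several of these molecules couple resorption to formation. Ephrin-B2 on osteoclasts and EphB4 on osteoblasts restrain the former and favour the latter, semaphorin 4D from osteoclasts holds back bone formation through plexin-B1, semaphorin 3A protects bone through neuropilin-1, and SLIT3 from osteoclasts promotes bone formation through Robo receptors.

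The bone coupling ligands that were higher in KO, Efnb2, Efnb1 and Sema7a, and the EphB4 receptor gene are shown by the 250 bases before their transcription start, since the series title names FOS and NFATC1. The windows come from RefSeq on build GRCm38.p6, which is not the build named for the counts (mm39), and are written on the gene's strand. They lie at chr8:8661243-8661492 for Efnb2 (minus strand), chrX:99135811-99136060 for Efnb1 (plus), chr5:137349859-137350108 for Ephb4 (plus) and chr9:57939862-57940111 for Sema7a (plus), immediately upstream of each gene. Capitals mark matches, on either strand, to TGANTCA (the AP-1 motif bound by FOS and JUN), GGAAAA (the core motif of NFAT factors), GGGCGG (the GC box) or CCAAT (the CCAAT box). These 4 motifs do not contain each other, and touching matches run together.
Efnb2: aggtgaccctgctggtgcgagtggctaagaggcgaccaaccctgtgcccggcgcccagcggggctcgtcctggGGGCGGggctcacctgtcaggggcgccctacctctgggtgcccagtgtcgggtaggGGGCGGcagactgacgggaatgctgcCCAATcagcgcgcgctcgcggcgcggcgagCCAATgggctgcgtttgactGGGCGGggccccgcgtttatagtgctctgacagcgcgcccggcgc
Efnb1: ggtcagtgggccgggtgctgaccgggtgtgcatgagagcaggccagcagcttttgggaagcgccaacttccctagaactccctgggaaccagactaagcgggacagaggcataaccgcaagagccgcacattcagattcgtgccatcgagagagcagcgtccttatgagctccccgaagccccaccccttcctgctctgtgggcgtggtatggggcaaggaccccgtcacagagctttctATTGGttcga
Ephb4: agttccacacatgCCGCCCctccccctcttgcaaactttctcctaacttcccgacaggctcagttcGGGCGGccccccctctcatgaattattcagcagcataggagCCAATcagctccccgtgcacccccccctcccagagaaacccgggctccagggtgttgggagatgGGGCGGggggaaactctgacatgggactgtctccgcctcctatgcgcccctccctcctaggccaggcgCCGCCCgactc
Sema7a: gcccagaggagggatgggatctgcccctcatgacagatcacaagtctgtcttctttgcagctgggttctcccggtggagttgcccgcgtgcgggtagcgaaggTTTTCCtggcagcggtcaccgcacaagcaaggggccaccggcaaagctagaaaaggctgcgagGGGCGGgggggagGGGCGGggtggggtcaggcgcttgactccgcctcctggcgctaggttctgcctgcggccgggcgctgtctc
None of the 4 windows held TGANTCA, which was found in 6.75% of all 32851 promoter windows of that length. The window of Sema7a held 1 match to GGAAAA, found in 20.4% of all windows. The GC box was matched 3 times before Efnb2, 4 times before Ephb4 and 2 times before Sema7a (32.7% of all windows held it), and CCAAT was matched 2 times before Efnb2 and 1 time each before Efnb1 and Ephb4 (33.8%). Of the 66 members 57 had an entry, with 73 windows, of which 3 held TGANTCA, 9 GGAAAA, 51 the GC box and 20 CCAAT. A match describes letters in the window and shows no binding.

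Igf2bp2 itself had 0.331, 0.333 and 0.258 CPM in the 3 KO libraries against 1.30, 0.883 and 0.932 CPM in the 3 WT libraries, so the KO libraries kept some counts of it. Total counts were 28551236 to 35094127 per library, of which mitochondrial genes took 85.3% to 86.0% in KO and 90.6% to 90.8% in WT. That left 4604575 to 4899680 nuclear counts in KO and 2625472 to 3205190 in WT, so low members are measured less precisely in WT. KO 1 with KO 3 and WT 2 with WT 3 differed by no more than counting noise in the median gene and were each summed and counted as 1 sample, which leaves n = 2 samples per group. Among the members the median ratio of observed to counting variance was 1.04 for KO 1 and KO 3 (54 members) and 0.942 for WT 2 and WT 3 (47 members). Levels are CPM, counts made comparable across library sizes by edgeR's TMM scaling, and are listed for libraries 1, 2 and 3 of a group in that order. Means are ± SD over 2 samples. Differences are log2 fold changes of KO against WT with their standard error (SE) and the false discovery rate (FDR) of edgeR's quasi-likelihood test over all genes. A gene passed at an FDR under 0.05.

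The tissue was mixed. Summed over fixed marker lists, skeletal muscle genes held 6732 to 7632 CPM in the KO libraries and 4455 to 5965 CPM in the WT libraries, and chondrocyte genes 41.6 to 48.9 CPM in the KO libraries and 18.9 to 24.6 CPM in the WT libraries. Of the 8 tested chondrocyte genes 1 was higher and 1 lower, with a median log2 fold change of -0.33. The higher one, Col11a2, went from 7.63 CPM in WT to 33.9 CPM in KO and carries the rise of the sum, and the lower one was Col10a1 (-2.19). Both were singled out after their values were seen. All 11 tested neuron markers and all 9 tested salivary gland markers were higher in KO, while 9 of 10 Schwann cell markers, 8 of 10 macrophage markers and 4 of 6 tested osteoclast markers were lower and none of these 3 lists had a higher member. In bulk tissue, fewer cells of a type and less RNA per cell cannot be told apart.

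Of the 59 tested guidance genes 21 passed, 8 higher and 13 lower in KO. Over all 14632 genes tested, 17.6% passed, 9.15% higher and 8.48% lower. The 3 KO libraries lay wholly above the 3 WT libraries for 12 members and wholly below for 16, against 19.3% and 19.2% of all tested genes (38.5% in either direction). Ligands gave 5 higher and 7 lower of 33, and receptors 3 higher and 6 lower of 26. These counts and the 21 include Efna3 (a lower ligand) and Epha5 (a higher receptor). Both calls rest on few counts and support nothing about the members, as described below. Robo2, a lower receptor, entered the test only through WT, where it is high, and its call supports nothing about the members either. The median log2 fold change was -0.13 over the members and -0.01 over all tested genes. Without KO 2 fewer members passed, and fewer of all genes passed as well. Leaving out KO 2 or WT 1 leaves that group with 1 summed sample, so the spread then comes from the other group alone. With at least 50 counts in 3 libraries, 10 of the 19 ligands and 5 of the 11 receptors that could be tested passed, beside 21.3% of all genes tested there.

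Genes with known roles in bone coupling moved in both directions: 3 of the 21 rose (Efnb2, Efnb1, Sema7a), 4 fell (Sema3b, Sema6d, Ephb3, Robo2) and 14 did not pass, beside the 17.6% of all genes that passed. Without KO 2, 3 of these genes passed (Efnb2, Sema7a, Sema3b), and in the DESeq2 Wald test 4 did (the same 3 and Robo2). Robo2 entered the test only through WT, the group where it is high. The bone coupling list was written from background knowledge, but with earlier results of these data known, so it is not independent of them. In the same libraries, osteoclast markers summed to 14.2 to 16.7 CPM in the KO libraries and 25.9 to 30.1 CPM in the WT libraries, and osteoblast and osteocyte markers to 89.0 to 95.3 CPM in the KO libraries and 58.8 to 61.3 CPM in the WT libraries. Of the osteoclast markers that were too low to test, Ocstamp had 4 counts, all in KO 2, Dcstamp had 10 counts in all, and Oscar had 7, 7 and 8 counts in KO against 0, 0 and 2 in WT. Of the 10 osteoblast and osteocyte markers 3 were higher and 1 lower (Runx2, -1.39), with a median log2 fold change of -0.23. Bglap, singled out after its values were seen, went from 14.6 CPM in WT to 44.9 CPM in KO and carries most of the rise of that sum. The part of these shifts in the results below was not tested.

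Efnb2, the ephrin that osteoclasts and arterial endothelium carry, was higher in every KO library. It had 14.6, 13.9 and 15.01 CPM in the 3 KO libraries against 7.01, 7.99 and 8.62 CPM in the 3 WT libraries. The mean was 14.3 ± 0.677 CPM (KO) against 7.67 ± 0.928 CPM (WT), which gave a log2 fold change of 0.90 (SE 0.13, FDR 0.000255), or 1.86-fold, and it passed in all 13 alternative analyses. Efnb1, a related ephrin whose loss disturbs skull and limb bones, was also higher in every KO library, by less. It had 8.58, 8.10 and 7.44 CPM in the 3 KO libraries against 4.79, 5.38 and 6.88 CPM in the 3 WT libraries, with WT 3 close to KO 3. Its log2 fold change was 0.54 (SE 0.15, FDR 0.0237), and it did not pass when KO 1, KO 2, WT 1 or WT 2 was left out (FDR 0.0539, 0.169, 0.0803 and 0.0888) or in the DESeq2 Wald test (FDR 0.0869).

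Ephb4, the receptor of ephrin-B2 on osteoblasts and venous endothelium, did not pass. It had 14.5, 14.8 and 15.8 CPM in the 3 KO libraries against 12.8, 9.75 and 11.5 CPM in the 3 WT libraries. All 3 KO libraries lay above all 3 WT libraries, by 0.36 (95% interval 0.10 to 0.62, FDR 0.0602) on the log2 scale, and the gene passed with 6 separate libraries (FDR 0.00636), with these and a replicate block (FDR 0.0157), with no filter on low counts (FDR 0.0231) and without WT 1 (FDR 0.0115). Ephb3, a receptor of the same ligands, went the other way. It had 0.637, 0.762 and 1.06 CPM in the 3 KO libraries against 1.98, 1.24 and 1.32 CPM in the 3 WT libraries, with a log2 fold change of -0.98 (SE 0.30, FDR 0.0373), so that the highest KO library was near the lowest WT library. The gene did not pass when KO 1, KO 2, WT 1 or WT 3 was left out (FDR 0.0983, 0.203, 0.227 and 0.0508), with 6 libraries and a replicate block (FDR 0.0534) or in the DESeq2 Wald test (FDR 0.134). Ephb2 was low, with 0.355 CPM (KO) and 0.401 CPM (WT) (FDR 0.878), and its sign changed without WT 1. Of the A-class genes on the list, Efna2, an ephrin of osteoclasts, and its receptor Epha2 differed by -0.33 (95% interval -1.41 to 0.75, FDR 0.722) and -0.12 (95% interval -0.53 to 0.28, FDR 0.721). Epha4 had 1.49 CPM (KO) and 1.49 CPM (WT), a difference of -0.01 (95% interval -0.54 to 0.51, FDR 0.979).

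The plot of bone coupling genes shows these levels with the semaphorin and slit genes described next.

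**Figure D1:**
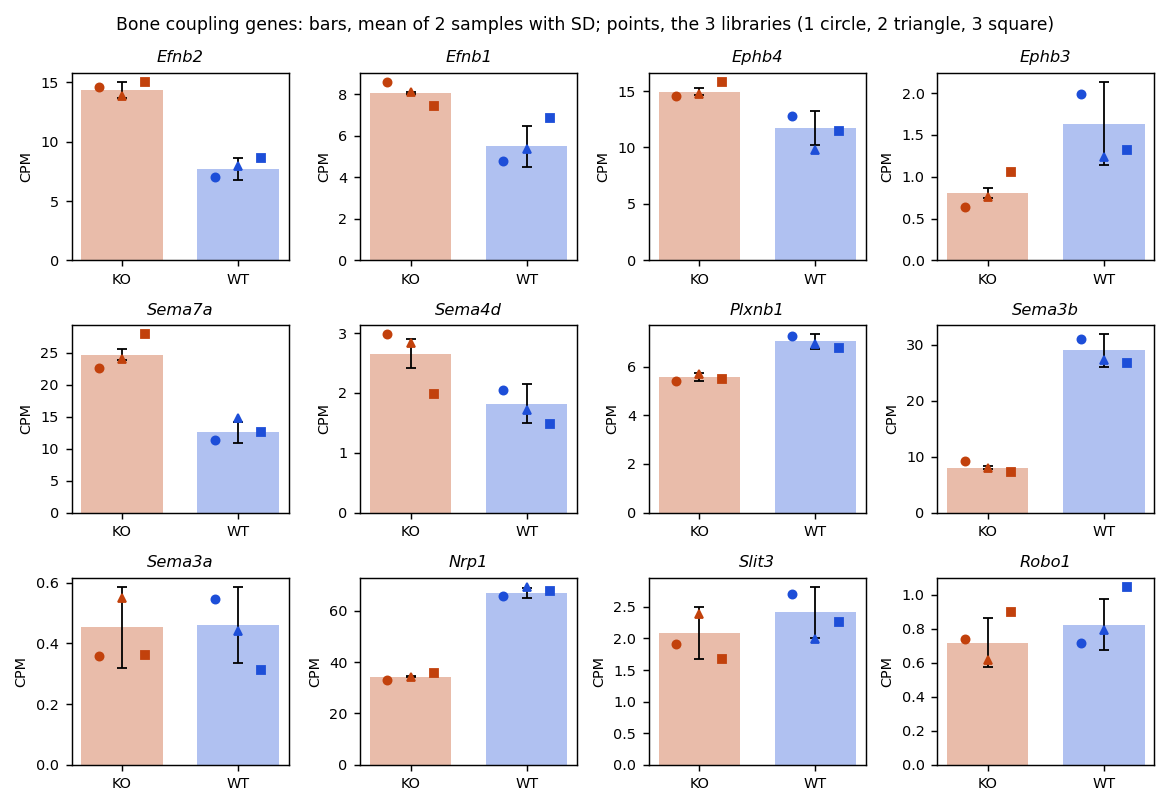
Expression of 12 genes in CPM on axes starting at 0, with bars for the mean of 2 samples per group, error bars for the SD and points for the 3 libraries (circle 1, triangle 2, square 3). KO points of Efnb2, Efnb1, Sema7a and Ephb4 sit above all WT points, those of Sema3b, Ephb3, Nrp1 and Plxnb1 below. Those of Sema4d, Sema3a, Slit3 and Robo1 overlap WT. Ephb4 and Plxnb1 did not pass.

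Among the semaphorins with bone roles, Sema7a rose and Sema3b and Sema6d fell. Sema7a encodes a membrane-anchored semaphorin that signals through integrins and plexin-C1 and has been tied to osteoclast fusion and osteoblast migration. It had 22.7, 24.1 and 27.9 CPM in the 3 KO libraries against 11.4, 14.9 and 12.6 CPM in the 3 WT libraries, so the lowest KO library was well above the highest WT library. The mean was 24.7 ± 0.851 CPM (KO) against 12.5 ± 1.61 CPM (WT), which gave a log2 fold change of 0.97 (SE 0.12, FDR 8.55e-05). KO 1 and KO 3 were not identical for this gene, at 891 and 1083 counts, a squared difference 7.90 times that of counting noise. The gene of its receptor, Plxnc1, was low, with 0.322 CPM (KO) and 0.412 CPM (WT) (FDR 0.621).

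Sema3b, a secreted semaphorin made by osteoblasts in response to vitamin D, had the smallest p-value of the members. It had 9.22, 7.88 and 7.21 CPM in the 3 KO libraries against 31.0, 27.2 and 26.6 CPM in the 3 WT libraries, a clear gap between the groups. The mean was 8.05 ± 0.240 CPM (KO) against 29.0 ± 2.88 CPM (WT), which gave a log2 fold change of -1.84 (SE 0.12, FDR 3.11e-07), or 3.59-fold lower in KO. The Sema3b counts of KO 1 and KO 3, summed as 1 sample, were 362 and 280, a squared difference 5.89 times that of counting noise. Sema6d, a ligand of plexin-A1 in osteoclast and dendritic cell formation, had 2.67, 3.21 and 3.48 CPM in the 3 KO libraries against 4.86, 5.08 and 5.17 CPM in the 3 WT libraries, also without overlap. Its difference was -0.67 (SE 0.16, FDR 0.0102), which did not pass without KO 2 (FDR 0.0826) or by DESeq2's Wald test (FDR 0.0615). Its receptor gene Plxna1 had 2.88 to 3.35 CPM in the KO libraries and spanned 2.02 to 4.72 CPM in the WT libraries, and differed by -0.13 (95% interval -0.73 to 0.47, FDR 0.805), with a positive sign without WT 1 (0.37).

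The best known osteoclast and osteoblast semaphorins did not pass. Sema4d had 2.98, 2.83 and 1.98 CPM in the 3 KO libraries against 2.05, 1.72 and 1.48 CPM in the 3 WT libraries, where KO 3 fell among the WT libraries. Its difference was 0.56 (95% interval 0.09 to 1.02, FDR 0.0959), and it passed without KO 3 (FDR 0.0423). KO 1 and KO 3, counted as 1 sample, had 117 and 77 counts of it, a squared difference 4.44 times that of counting noise.

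Plxnb1, the receptor of semaphorin 4D on osteoblasts, had 5.42, 5.69 and 5.51 CPM in the 3 KO libraries against 7.25, 6.93 and 6.76 CPM in the 3 WT libraries. Every KO library was below every WT library, with a difference of -0.34 (95% interval -0.63 to -0.04, FDR 0.119), and the gene passed only in the analysis of 6 separate libraries (FDR 0.0437). Sema3a, the osteoprotective semaphorin of osteoblasts and nerves, was scarce. It had 0.357, 0.548 and 0.361 CPM in the 3 KO libraries against 0.547, 0.441 and 0.311 CPM in the 3 WT libraries, from 85 counts in all libraries together. The groups overlapped, and the difference of -0.02 (95% interval -1.03 to 0.99, FDR 0.983) leaves room for a change of about 1 log2 unit either way. Its coreceptor gene Nrp1 fell, as described with the partner genes below.

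Of the slit, Robo, netrin and Unc5 genes on the bone coupling list, Robo2 alone passed. Slit3 had 1.91, 2.38 and 1.67 CPM in the 3 KO libraries against 2.70, 1.99 and 2.25 CPM in the 3 WT libraries, and its groups overlapped (-0.21 (95% interval -0.70 to 0.27, FDR 0.582)). Robo1 had 0.739, 0.619 and 0.901 CPM in the 3 KO libraries against 0.719, 0.794 and 1.05 CPM in the 3 WT libraries, also overlapping (-0.19 (95% interval -0.94 to 0.55, FDR 0.770)). Robo2 was lower in KO, on few counts: it had 0.458, 0.0476 and 0.386 CPM in the 3 KO libraries against 1.30, 1.19 and 0.855 CPM in the 3 WT libraries, with KO 2 at 2 counts. KO 2 was under the cutoff of the filter on low counts. Robo2 thus entered the test through WT, where it is high, so its call supports nothing about the members. Its log2 fold change was -2.09 (SE 0.61, FDR 0.0444), moved to -1.43 without KO 2, and did not pass without KO 2, WT 1 or WT 2 (FDR 0.0855, 0.133 and 0.0691). Ntn1, a netrin linked to inflammatory bone loss through Unc5b on osteoclasts, had 3.42 CPM (KO) and 3.47 CPM (WT) and differed by -0.02 (95% interval -0.39 to 0.36, FDR 0.967). Unc5b had 4.04 CPM (KO) and 4.41 CPM (WT), a difference of -0.13 (95% interval -0.50 to 0.24, FDR 0.672). For Ntn1 and Unc5b the intervals exclude a change of 1 log2 unit in either direction.

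Turning to the families as wholes, ephrins gave 3 higher and 1 lower of 8 and Eph receptors 1 higher and 2 lower of 11 tested, beside 9.15% higher and 8.48% lower of all genes. The lower ephrin, Efna3, and the higher Eph receptor, Epha5, passed on few counts and are set apart below. Without KO 2, 1 ephrin (Efnb2) and 1 Eph receptor (Ephb6) passed. Per kilobase of transcript and averaged over the groups, Efna1 and Efnb2 were the most abundant ephrin genes (6.18 in KO and 3.97 in WT CPM per kb for Efna1, and 2.99 in KO and 1.60 in WT for Efnb2), and Ephb4 and Ephb6 the most abundant receptor genes (3.45 in KO and 2.70 in WT for Ephb4, and 0.567 in KO and 1.01 in WT for Ephb6). In WT alone Efnb1 was above Efnb2, and in KO alone Epha2 was above Ephb6. Efna1, an ephrin that endothelium makes after inflammatory stimulation, had 10.7, 9.74 and 10.1 CPM in the 3 KO libraries against 7.22, 5.34 and 6.10 CPM in the 3 WT libraries. All KO libraries were above all WT libraries, with a log2 fold change of 0.65 (SE 0.14, FDR 0.00566) that did not pass without KO 2 (FDR 0.0536). Ephb6, a receptor without kinase activity, had 2.11, 2.52 and 1.36 CPM in the 3 KO libraries against 4.00, 3.62 and 3.53 CPM in the 3 WT libraries, lower in each KO library, with a difference of -0.85 (SE 0.21, FDR 0.0125).

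Efna3 and Epha5 passed on few counts. Efna3 had counts of 4, 3 and 0 against 11, 8 and 8, which is 0.102, 0.0714 and 0 CPM in the 3 KO libraries against 0.376, 0.353 and 0.311 CPM in the 3 WT libraries (-2.52 (SE 0.69, FDR 0.0218)). Only 3 of the 6 alternatives that could test it gave a call (FDR 0.180 without KO 2, 0.0863 without WT 1, and 0.101 in the DESeq2 Wald test), and 344 bases of its exons overlap an opposite-strand gene in the GENCODE M21 annotation, whose reads cannot be told apart here. Epha5, a receptor best known from neurons, had 10, 8 and 7 KO counts and none in WT, or 0.255, 0.190 and 0.180 CPM in the 3 KO libraries against 0, 0 and 0 CPM in the 3 WT libraries. It was 5.39-fold higher than a WT floor of 3 counts in all (FDR 0.0156). With both mates of a pair apparently counted, that fold is no strict lower bound. The call did not pass without KO 2 (FDR 0.134). Each of these genes entered the test through the group where it is high, Efna3 through WT and Epha5 through KO, so their calls support nothing about the members. Neuron markers summed to 60.5 to 66.1 CPM in the KO libraries and 3.76 to 5.91 CPM in the WT libraries, and the defining autonomic genes Chrna3, Slc5a7 and Dbh had no WT count. The part of these cells in the level of Epha5 was not tested.

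Differences of all tested members are drawn by family in the plot of log2 fold changes with their intervals.

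**Figure D2:**
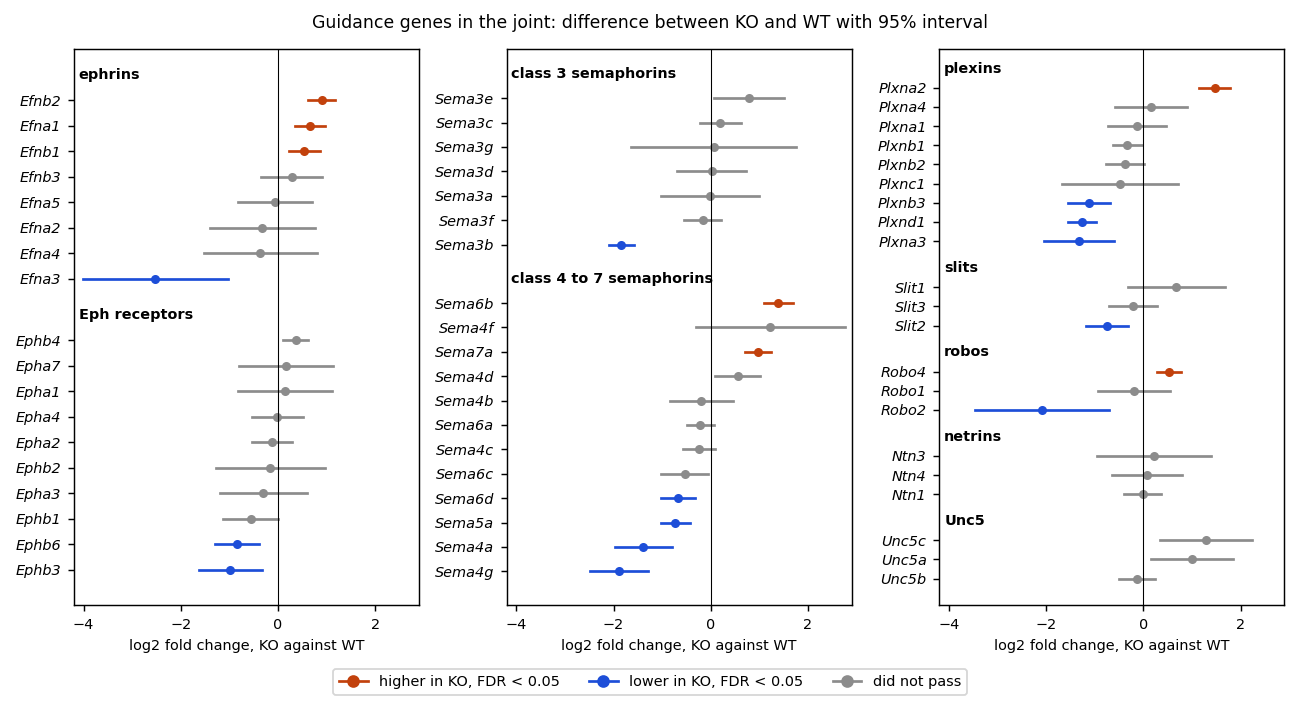
Log2 fold change of KO against WT (point) with its 95% interval (line) for 58 tested members in 9 families, coloured by direction where the FDR was under 0.05. Epha5, which had no WT count, is not drawn. Plxna2 and Sema6b lie farthest to the right of the called genes and Efna3, Robo2 and Sema4g farthest to the left.

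Of the 7 class 3 semaphorins, which are secreted, Sema3b alone passed, beside 17.6% of all genes. By level per kilobase it and Sema3g, a semaphorin of arterial endothelium, led the class. Sema3g had 9.47, 4.17 and 11.1 CPM in the 3 KO libraries against 7.60, 9.67 and 4.04 CPM in the 3 WT libraries, so its values spread as widely within each group as between them (0.06 (95% interval -1.63 to 1.75, FDR 0.963)). WT 2 and WT 3, which were counted as 1 sample, had 219 and 104 counts of Sema3g, a squared difference 28.3 times that of counting noise. For this gene those libraries did not agree. Sema3e, the direct ligand of plexin-D1, lay higher in every KO library but did not pass (0.79 (95% interval 0.07 to 1.51, FDR 0.126)). Sema3c, Sema3d and Sema3f had log2 fold changes of 0.20, 0.02 and -0.16, with FDRs of 0.558, 0.984 and 0.593.

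The membrane-bound and class 5 semaphorins split, with 2 higher and 4 lower of 12 tested, beside 9.15% higher and 8.48% lower of all genes. Sema6b, a transmembrane ligand of A-type plexins, had 9.60, 10.7 and 9.61 CPM in the 3 KO libraries against 3.80, 4.06 and 3.77 CPM in the 3 WT libraries, with a wide gap between the groups. The mean was 10.2 ± 0.786 CPM (KO) against 3.85 ± 0.0756 CPM (WT), which gave a log2 fold change of 1.39 (SE 0.14, FDR 1.55e-05). Sema4g fell most by fold in this class. It had 1.095, 1.31 and 0.979 CPM in the 3 KO libraries against 5.47, 3.05 and 3.34 CPM in the 3 WT libraries, with WT 1 the highest library, and a log2 fold change of -1.88 (SE 0.27, FDR 0.000635). Sema4a, a semaphorin of immune cells and endothelium, had 0.662, 0.762 and 0.644 CPM in the 3 KO libraries against 1.81, 2.25 and 1.51 CPM in the 3 WT libraries, also without overlap (-1.39 (SE 0.27, FDR 0.00276)).

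Sema5a, whose protein binds plexin-B3 and carries thrombospondin repeats, had 4.48, 4.36 and 4.82 CPM in the 3 KO libraries against 7.60, 7.90 and 6.91 CPM in the 3 WT libraries. Its KO libraries were all below the WT libraries (-0.73 (SE 0.14, FDR 0.00270)), and the call was lost without KO 2 (FDR 0.0624). Averaged over the groups, Sema6c had the second highest level per kilobase of these classes (2.50 in KO and 3.62 in WT CPM per kb) after Sema7a (7.48 in KO and 3.80 in WT), although in KO alone Sema6b and Sema4c were above it. It had 12.7 CPM (KO) and 18.4 CPM (WT) and did not pass (-0.53 (95% interval -1.01 to -0.05, FDR 0.128)), but passed without WT 3 (FDR 0.0307) and with no filter on low counts (FDR 0.000668). Sema4b, Sema4c, Sema4f and Sema6a did not pass, with log2 fold changes of -0.20, -0.23, 1.23 and -0.21.

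Plexin receptor genes gave 1 higher and 3 lower of 9, beside the same 9.15% and 8.48% of all genes. Plxna2, a receptor of class 6 semaphorins and, with neuropilins, of class 3, had 10.8, 11.6 and 12.2 CPM in the 3 KO libraries against 3.66, 4.37 and 4.86 CPM in the 3 WT libraries. The gap between the lowest KO and the highest WT library was wide. The mean was 11.6 ± 0.0934 CPM (KO) against 4.14 ± 0.684 CPM (WT), which gave a log2 fold change of 1.46 (SE 0.15, FDR 1.26e-05). Plxnd1, the plexin of endothelium that binds semaphorin 3E and restrains vessel sprouting, went the other way and was the most abundant plexin gene per kilobase (2.24 in KO and 5.36 in WT CPM per kb). It had 14.1, 16.2 and 15.4 CPM in the 3 KO libraries against 41.6, 33.4 and 31.7 CPM in the 3 WT libraries, with no overlap, and a log2 fold change of -1.26 (SE 0.13, FDR 2.44e-05).

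Plxnb3 and Plxna3 were also lower. Plxnb3 had 1.45, 1.43 and 1.49 CPM in the 3 KO libraries against 3.35, 2.29 and 3.61 CPM in the 3 WT libraries (-1.12 (SE 0.20, FDR 0.00160)), so the lowest WT library was above every KO library. Plxna3 had 0.586, 0.429 and 0.618 CPM in the 3 KO libraries against 1.37, 1.103 and 1.44 CPM in the 3 WT libraries (-1.32 (SE 0.33, FDR 0.0135)), a call that did not hold without KO 2 (FDR 0.122). Semaphorin 5A and plexin-B3 are a known ligand and receptor, and both genes were lower. This pair was singled out after its values were seen. Other pairs had opposite signs: Sema3e (0.79, did not pass) with Plxnd1 (-1.26), and Sema7a (0.97) with Plxnc1 (-0.48, did not pass). Plxnb2, a receptor of class 4 semaphorins with the second highest level of the plexins per kilobase when averaged over the groups (0.812 in KO and 1.06 in WT CPM per kb, below Plxna2 in KO), differed by -0.39 (95% interval -0.78 to 0.01, FDR 0.174). Plxna4 had a log2 fold change of 0.15 (FDR 0.820).

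**Figure D3:**
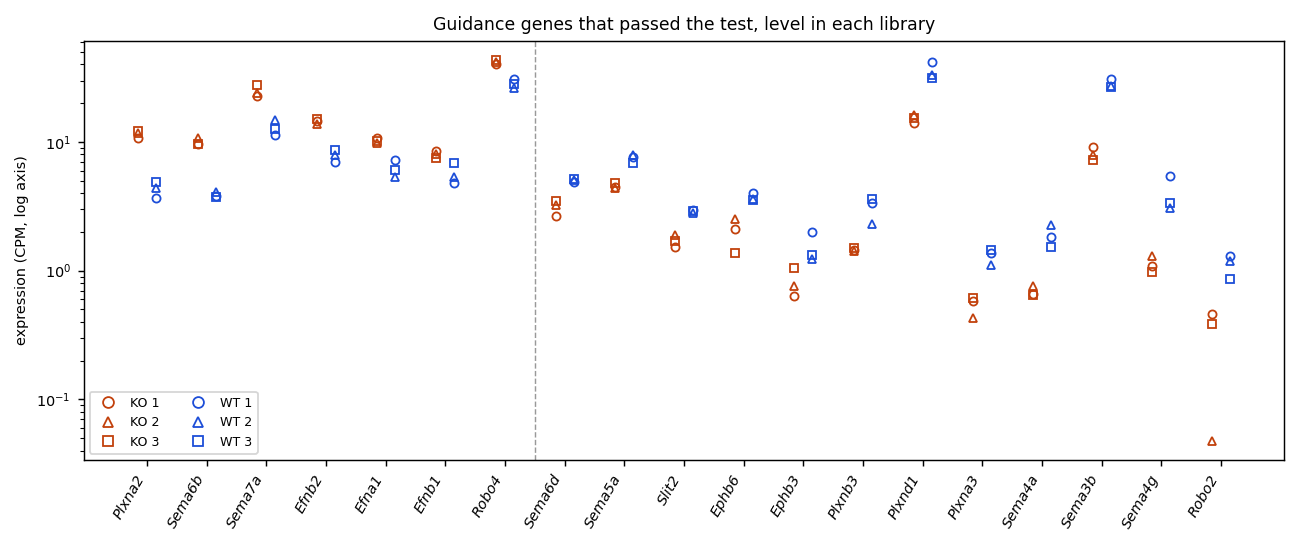
Level of 19 called members in each of the 6 libraries (CPM, log axis), ordered by log2 fold change, with KO in orange, WT in blue and a dashed line between genes higher and lower in KO. Efna3 and Epha5, which have libraries with no count, are not drawn. No KO point lies among the WT points of its gene, and Robo2 in KO 2 stands apart at 0.0476 CPM.

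Robo4, the Robo receptor of endothelium that stabilises vessels, had the highest level per kilobase of any member in KO (8.46 in KO and 5.91 in WT CPM per kb). It had 40.2, 42.0 and 43.5 CPM in the 3 KO libraries against 31.0, 26.4 and 28.5 CPM in the 3 WT libraries, higher in every KO library. The difference was modest, 0.52 (SE 0.12, FDR 0.00654), and did not pass without KO 2 (FDR 0.137). Slit2, a secreted ligand of Robo1 and Robo2, had 1.53, 1.90 and 1.70 CPM in the 3 KO libraries against 2.98, 2.82 and 2.91 CPM in the 3 WT libraries, lower in every KO library (-0.74 (SE 0.20, FDR 0.0208)). That call did not pass without KO 2 or WT 1 (FDR 0.0748 and 0.0609) or in the DESeq2 Wald test (FDR 0.124). Slit2 and its receptor gene Robo2 were both lower, while its receptor gene Robo1 did not pass (-0.19). The pair of Slit2 and Robo2 was singled out after its values were seen, and the Robo2 call supports nothing about the members. Slit1 had a log2 fold change of 0.68 on 83 counts in all (FDR 0.361).

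None of the netrin or Unc5 genes passed. Ntn4, a basement membrane netrin, had 1.35 CPM (KO) and 1.28 CPM (WT) (0.08 (95% interval -0.64 to 0.80, FDR 0.914)) and Ntn3 a log2 fold change of 0.22 (FDR 0.842). Unc5a and Unc5c had larger estimates on few counts. Unc5a had 1.15, 0.810 and 0.798 CPM in the 3 KO libraries against 0.308, 0.574 and 0.544 CPM in the 3 WT libraries, with no overlap between groups (0.99 (95% interval 0.15 to 1.83, FDR 0.102)). Unc5c had 0.725 CPM (KO) and 0.285 CPM (WT) (1.29 (95% interval 0.34 to 2.24, FDR 0.0608)) and passed without KO 1 or WT 2 and with no filter on low counts.

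Several of these genes are expressed in blood vessels, among them Robo4, Efnb2, Ephb4, Efna1, Sema3g, Plxnd1 and Unc5b. Endothelial markers summed to 481 to 505 CPM in the KO libraries and 312 to 342 CPM in the WT libraries, with 5 of 10 higher and 2 lower. Pecam1 and Flt1 were higher (log2 fold changes 0.74 and 1.35), Kdr and Emcn lower (-0.88 and -0.50), and Tek and Tie1 did not pass (0.01 and 0.23). Flt1, singled out after its values were seen, went from 60.8 CPM in WT to 155 CPM in KO, a large part of the rise of the sum. Of the members named here, Robo4, Efnb2 and Efna1 were higher and Plxnd1 lower. Ephb4, Sema3g and Unc5b did not pass (0.36, 0.06 and -0.13). Schwann cell markers summed to 483 to 500.5 CPM in the KO libraries and 1409 to 1461 CPM in the WT libraries. How far these cell types set the members' levels was not tested.

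The partners of the guidance families, 52 coreceptors, adaptors and effectors that the symbol rule does not take, gave 5 higher and 10 lower of 48 tested, against the 9.15% and 8.48% of all genes. Of the 5 higher, Cntn1 and Crmp1 entered the test only through KO, where they are high, so their calls support nothing about the partners. The 8 partners of smallest p are given here. Nrp1, the coreceptor of class 3 semaphorins and of VEGF, had the smallest p. It had 33.0, 34.1 and 35.9 CPM in the 3 KO libraries against 65.8, 69.5 and 67.6 CPM in the 3 WT libraries, with a log2 fold change of -0.97 (SE 0.11, FDR 4.63e-05), with no overlap between the groups. Dpysl3, a cytosolic mediator of semaphorin 3A signals, differed by -0.92 (FDR 0.000160), and Fyn, a kinase downstream of plexins, netrin and ephrin receptors, by -0.88 (FDR 0.000173). Arhgap39, a GTPase regulator of Robo signalling, and Tiam1, a Rac activator, differed by -1.14 and -1.02 (FDR 0.00161 and 0.00579).

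The Mical enzymes oxidise actin downstream of plexins. Mical2 was higher (0.80, FDR 0.00267) and Mical1 lower (-0.69, FDR 0.00521, and 0.0976 without KO 2). Cntn1, an adhesion protein of axons, was higher, with 0.969 CPM (KO) and 0.155 CPM (WT) (2.54 (SE 0.46, FDR 0.00152)), in libraries where the neuron markers were also higher. It had WT counts of 3, 6 and 4 and entered the test only through KO, so its call supports nothing about the partners. Nrp2, the other neuropilin gene and chosen after its values were known, had 6.70 CPM (KO) and 8.54 CPM (WT) and did not pass (-0.36 (95% interval -0.68 to -0.04, FDR 0.116)). Dcc, the netrin receptor, had 19 counts in all and was not tested.

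Of the 66 members, 7 were too low to test: Epha6, Epha8, Epha10, Sema5b, Robo3, Ntn5 and Unc5d had 14, 3, 11, 4, 3, 12 and 13 counts over the 6 libraries. The remaining tested members not given above, Epha1, Epha3, Epha7, Ephb1, Efna4, Efna5 and Efnb3, did not pass, with log2 fold changes from -0.56 (Ephb1) to 0.28 (Efnb3).

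How far each call depended on the analysis is drawn in the plot of 13 alternatives. Of the 21 calls 10 passed in each alternative that could test them: Plxna2, Sema6b, Sema7a, Efnb2, Sema3b, Sema4g, Sema4a, Plxnd1, Plxnb3 and Ephb6. The other 11 lost the call in at least 1, and without KO 2 all 11 of these did.

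**Figure D4:**
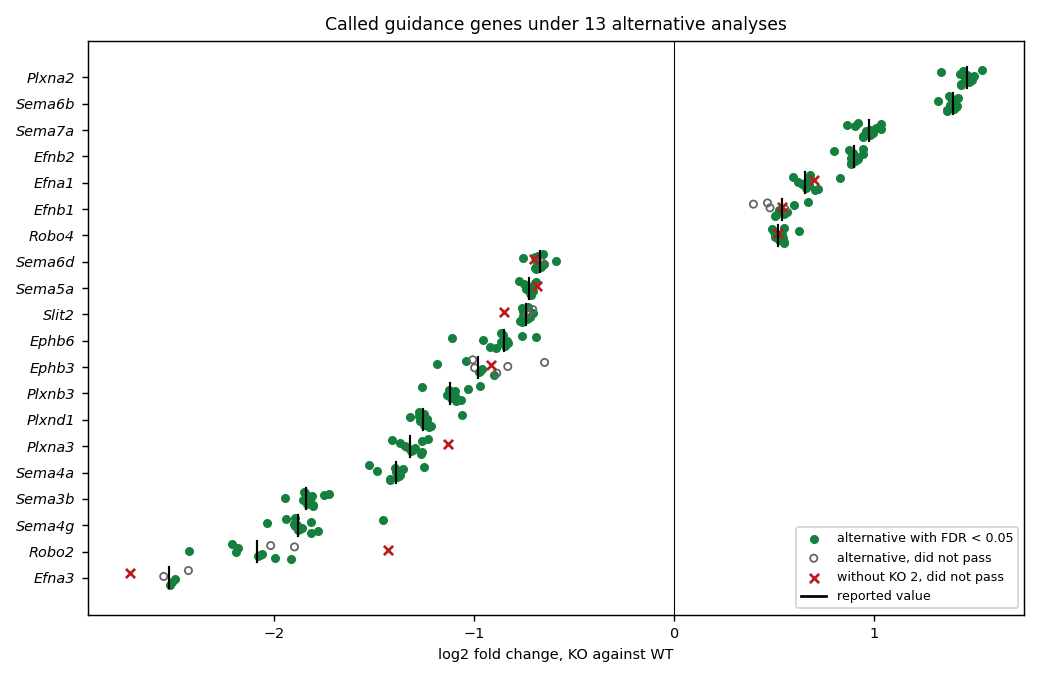
Log2 fold change of KO against WT for 20 called members under each alternative analysis that could test them, filled green where the FDR was under 0.05, open where it was not, and a red cross for the analysis without KO 2 where it did not pass. The black tick is the reported value. Every alternative kept the sign, and Epha5 is not drawn.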

How the data were processed

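For 6 TMJ libraries (3 KO, 3 WT), Trizol extraction was followed by mRNA isolation with a kit, per the labels' protocols. The authors deposited raw read counts per gene symbol, with 1 column per library. HISAT2 2.1.0, StringTie 2.1.5 and build mm39 appear in the submitters' processing notes, without roles. The annotation, the strand setting and the rule for multi-mapped reads were not given in the sources used here.

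Members and gene lists were chosen with earlier results of these data known. Libraries whose median ratio of observed to counting variance was under 1.1 (at least 20 summed counts, 2 counts per read pair) were summed, giving n = 2 samples per group. Nothing in the labels ties each library to its own animal, so the p-values reflect the spread of these samples alone, possibly a technical spread. edgeR 4.0.16 in R 4.3.3 was used: filterByExpr with a minimum count of 10, TMM, and the robust quasi-likelihood test with group as the term, on all genes. SE is the absolute log2 fold change over the square root of F. A library's CPM uses the TMM factor of its sample. The method was tested on simulated data. Transcript lengths are the longest per symbol in GENCODE M21. Counting floors cover counting error only.

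Genes were named by rule: members that passed, the bone coupling list, the 2 members of each family with the highest level per kilobase, and the 8 partner genes of smallest p. Others are given as counts or ranges. Alternatives were 6 separate libraries, the same with a replicate block, DESeq2 1.42.0 size factors and Wald test, no mitochondrial genes, no filter, at least 50 counts in 3 libraries, and leaving out each library. Marker lists that are not described in the text (keratinocyte, olfactory, adipocyte, fibroblast, smooth muscle) had 0, 0, 2, 3 and 4 members higher and 2, 5, 5, 3 and 0 lower.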

Additional observations from a re-analysis of the deposited data

How the results depend on the processing

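The count of guidance genes that passed (21, 8 higher and 13 lower) ranged from 10 to 20 when 1 library was left out, with 4 to 8 higher and 6 to 12 lower. Without KO 2 or WT 1 that group is left with 1 sample, assumed to vary like those of the other group. Over the same 6 omissions the count for all genes (2580) ranged from 1149 to 2434 (616 to 1348 higher, 533 to 1187 lower), and that of partner genes (15) from 7 to 17 (2 to 7 higher, 5 to 11 lower). With at least 50 counts in 3 libraries, where 30 members could be tested, 8 members were lower, and 2 partner genes were higher. The DESeq2 Wald test called 16 of the 21 members (not Efnb1, Ephb3, Sema6d, Efna3 and Slit2), 1634 genes, 738 of them lower, and 9 partner genes, 2 of them higher. With 6 separate libraries 21 members and 3452 genes passed.

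The replicate numbers did not pair the samples: deviations from the group means of KO and WT libraries with the same number correlated at -0.10, -0.14 and 0.08. With a replicate block over the 6 libraries 19 members passed (8 higher, 11 lower), 18 of them shared with the reported 21, and 2941 of all genes.

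Of the 38 tested members that did not pass, 14 changed sign under some alternative, 8 of them named by the rule and 6 others (Sema3c, Sema3d, Epha7, Efna5, Ntn3 and Plxna4). With 1 library left out, Epha4 (-0.014) ranged from -0.15 to 0.16, Ephb2 (-0.16) from -0.46 to 0.27, Ntn1 (-0.016) ranged from -0.066 to 0.11, Ntn4 (0.079) ranged from -0.28 to 0.47, Plxna1 (-0.13) ranged from -0.29 to 0.37, Sema3a (-0.023) ranged from -0.33 to 0.26, Sema3g (0.058) ranged from -0.21 to 0.53 and Unc5b (-0.13) ranged from -0.24 to 0.0083, so that their signs changed. Epha4 was at 0.0067 with no filter and 0.00039 in the DESeq2 Wald test, Ntn1 was at 0.0052 with no filter and Plxna1 was at 0.0052 with the block.

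Scaling moved the median log2 fold change of all genes by less than 0.1, and no called member changed sign in any alternative. Low depth on nuclear genes limits members under about 1 CPM.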
